A study of Mus musculus with 24 samples.

Results

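The angiopoietin and Tie pathway was followed here through 7 of the 22282 genes measured: the receptors Tek and Tie1, the receptor phosphatase Ptprb, the ligands Angpt1 and Angpt2, and the angiopoietin-like genes Angptl2 and Angptl4. These members were taken by name. Each was listed as 1 RefSeq transcript, and all 7 passed the filter used for testing, an average of 1 or more over the 24 libraries in FPKM, a fragment count scaled to transcript length and to the size of the library.

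Tek, also known as Tie2, is the receptor tyrosine kinase of the endothelium that binds the angiopoietins, and Tie1 is its relative, which binds them poorly on its own and modulates Tek signalling. Angpt1 comes mostly from mural and mesenchymal cells and activates Tek, whereas Angpt2 is made and stored by endothelial cells (ECs) and acts as a weak agonist or an antagonist depending on context, and Ptprb, known as VE-PTP, removes phosphate from Tek. Angptl2 and Angptl4 share the fold of the angiopoietins but do not bind the Tie receptors, and Angptl4 is a secreted inhibitor of lipoprotein lipase.

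The study asked whether mouse amniotic cells can be converted to endothelium, and its 24 RNA-sequencing libraries fall into 8 groups of 3, all on the C57BL/6J background. MACs are cultured amniotic fluid cells from E11.5 to E13.5 embryos, and Akt-MACs are the same cells given a lentivirus for myristoylated, constitutively active Akt. RACVECs are MACs that received lentiviruses for the mouse Ets factors Etv2, Erg and Fli1, and Akt-RACVECs received active Akt in addition. Sox17-RACVECs are RACVECs that received mouse Sox17 in a different lentiviral vector and were then selected with puromycin. No such selection is named for RACVECs, so Sox17 and the selection cannot be told apart. Akt-LECs and Akt-liver ECs are adult lung and liver ECs cultured with active Akt, and LSECs are liver ECs taken directly from the mouse by flow cytometry. The transgenes in the pCCL vector were driven by the PGK promoter, which is not restricted to a cell type. A MAC replicate was a separate culture from embryos of both sexes. Akt-LECs and Akt-liver ECs were captured by CD31 and re-sorted for VE-cadherin and CD31, and LSECs were sorted by VE-cadherin and isolectin, so Cdh5 and Pecam1 are no finding there. Converting cells were kept in EC medium with VEGF-A and the TGF-β receptor inhibitor SB431542, whereas MACs were expanded in an amniotic cell medium, so the medium and the Ets factors cannot be told apart, nor can culture and Akt in Akt-liver ECs against LSECs.

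Libraries were checked before the members were compared. Sox17 was listed at 0 in the 3 RACVECs and at 5.09, 40.1 and 200.06 in the Sox17-RACVECs. Etv2 was listed at 301 to 860 in RACVECs and at 127 to 572 in Akt-RACVECs, and at 0 in every library of the 5 groups without Ets vectors. Erg, which RACVECs also received as a vector, was at only 0.900 to 13.8 in RACVECs against 395 to 1002 in Akt-RACVECs. In the library labelled Sox17-RACVEC 2, Etv2 was listed at 0 and Erg at 387, against 378 and 458 for Etv2 and 0 and 4.49 for Erg in the other 2 Sox17-RACVEC libraries. Its log2(FPKM + 1) values had a Pearson correlation of 0.970 with Akt-RACVEC 3 and of 0.873 and 0.872 with the other Sox17-RACVECs over the 14964 genes tested. Results on Sox17-RACVECs are therefore given with and without it. Akt-LEC 1 and Akt-liver EC 1 held mesenchymal and mural RNA (12 of 12 markers found, summed FPKM 4267 and 2820, against 36.1 to 439 in the other libraries of these groups). Akt-MAC 2 and 3 held macrophage RNA (7 of 8 markers in the table, summed FPKM 8758 and 28439, against 917 in Akt-MAC 1 and at most 23.95 in MACs). LSECs held macrophage RNA at 9376 to 15347, hepatocyte RNA at 2775 to 16358 (8 of 8 markers) and red cell RNA at 11346 to 12971 (4 of 5 markers in the table). The summed level of 10 endothelial markers was 73.9 to 153 in MACs and Akt-MACs, 2666 to 4943 in RACVECs, and 6739 to 24375 in the other groups. In bulk RNA, fewer cells of a type and less RNA per cell cannot be told apart.

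Group differences below are log2 fold changes on the log2(FPKM + 1) scale with their standard errors (SE) from limma. Calls required a p under 0.05 after Benjamini-Hochberg adjustment together with a log2 fold change beyond 1 in size. FPKM carries no number of reads, so counting error cannot be given, and a value listed at 0 may be a failed estimate. Several comparisons use the same RACVEC, MAC or Akt-LEC libraries and are not independent of each other. Groups of 3 libraries can lie apart by chance, and the share of all genes whose groups did not overlap was not computed.

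**Figure D1:**
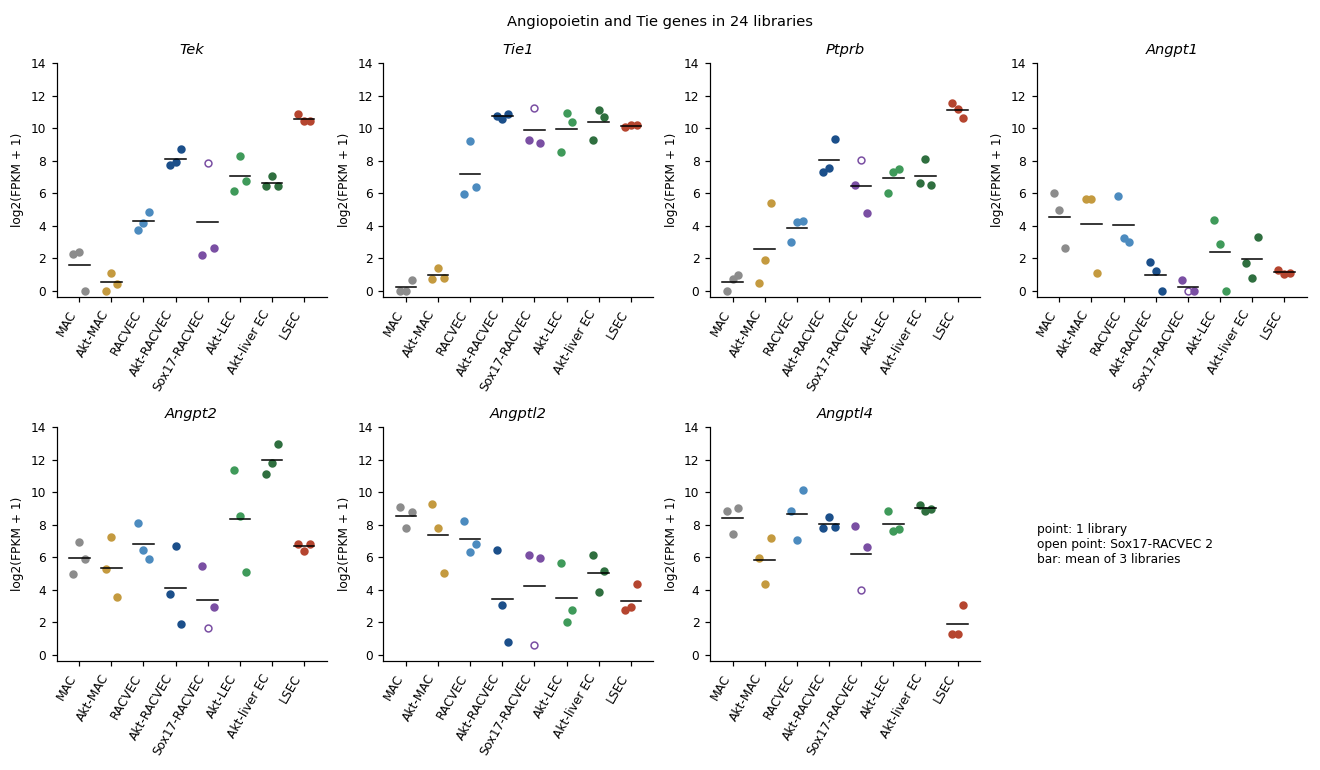
Level of the 7 genes in the 24 libraries, as log2(FPKM + 1) on the vertical axis and the 8 groups on the horizontal axis. Each point is 1 library, the bar is the mean of 3, and the open point is the library labelled Sox17-RACVEC 2. By group mean, Tek and Tie1 were lowest in MACs and Akt-MACs, Ptprb was lowest in MACs, Angpt2 was highest in Akt-liver ECs (2239 to 8133 FPKM), and Angptl4 was lowest in LSECs (1.39 to 7.24 FPKM).

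The 250 bases upstream of the Tie1 start are shown because Tie1 was the only member called in the comparison of RACVECs with MACs, the step at which Ets factors were added. The sequence is from RefSeq on GRCm38.p6 at chr4:118489850-118490099, read 5′ to 3′ on the minus strand, with capitals at every match to AGGAAG or AGGAAA, or to CGGAAG or CGGAAA, on either strand, the letters searched as Ets motifs.
Tie1: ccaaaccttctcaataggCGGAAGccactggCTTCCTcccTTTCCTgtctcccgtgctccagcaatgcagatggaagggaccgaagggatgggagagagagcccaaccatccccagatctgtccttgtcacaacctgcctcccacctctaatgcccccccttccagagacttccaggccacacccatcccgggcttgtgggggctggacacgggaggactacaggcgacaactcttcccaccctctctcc
The 3 matches lie between 232 and 205 bases upstream of the start. The longer form ACAGGAA matched on the opposite strand at 209 to 203 bases upstream, overlapping the match at 210 to 205. At least 1 Ets match was present in 57.2% of the 32851 windows of this length, and ACAGGAA in 7.20%. RefSeq windows were matched for Tek, Tie1 and Angptl2, and not for Ptprb, Angpt1, Angpt2 and Angptl4. Of the window of Tek, 203 bases lie inside its RefSeq gene record and 47 before it, so most of it is not upstream of the gene. It held 0 Ets matches and 2 matches to the Sox letters AACAAT or ACAAAG, which 7896 of the windows held, and the window of Angptl2 held 1 Ets match and 1 match to ACAGGAA, at overlapping positions. GTAAACA, searched for forkhead factors, matched in 0 of the 3 windows and in 3.17% of all. A match is a run of letters and was not tested as a binding site.

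Tek (NM_013690, mm9 chromosome 4 from 94405980 to 94541667, plus strand) was by group mean lowest in the amniotic cells, higher in RACVECs and again in Akt-RACVECs, and highest in LSECs. Its FPKM was 3.83, 4.28 and 0 in the MAC libraries and 0, 1.16 and 0.360 in the Akt-MACs. In RACVECs it was 12.5, 17.1 and 27.9, above each MAC and Akt-MAC library. The Akt-RACVEC libraries had 208, 240.2 and 416, above every RACVEC library, and 2 of them lay within the range of the cultured lung ECs. Akt-LECs had 70.1, 307 and 107, and Akt-liver ECs had 86.5, 132 and 84.2. LSECs stood above all other libraries at 1907, 1360.2 and 1377. In Sox17-RACVECs the receptor was at 3.67 and 5.17 in libraries 1 and 3, below every RACVEC library and near the 3.83 and 4.28 of MAC 1 and 2. The library labelled Sox17-RACVEC 2 had 231, in the range of Akt-RACVECs.

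Tie1 (NM_011587, chromosome 4 from 118143796 to 118162666, minus strand) was near 0 in unconverted amniotic cells and high in all converted ones. Its FPKM was 0, 0 and 0.590 in MACs and 0.640, 1.59 and 0.700 in Akt-MACs. RACVECs had 60.8, 602 and 82.5, with library 2 far above the others. In Akt-RACVECs it reached 1716, 1530.1 and 1830.4, all above the highest RACVEC. The other EC groups lay in the same region, with 605, 2463 and 543 in Sox17-RACVECs, 367, 1960.1 and 1326 in Akt-LECs, and, from liver, 609.9, 2238 and 1637 in cultured cells. LSECs were tightly grouped at 1096, 1147 and 1186, within the range of the cultured ECs. By group means, Akt-RACVECs, Akt-liver ECs, Akt-LECs, Sox17-RACVECs and LSECs followed in falling order, and each of these groups overlapped the next.

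Ptprb (NM_029928, chromosome 10 from 115712579 to 115826594, plus strand) had, like Tek, its highest values in LSECs. Its FPKM was 0, 0.670 and 0.930 in MACs, and 0.390, 2.73 and 40.9 in Akt-MACs, where the highest value was in the library with the most macrophage RNA. RACVECs had 7.08, 17.9 and 18.4, and Akt-RACVECs had 157, 189 and 643, with no overlap between them. Sox17-RACVECs spread over 88.3, 264 and 26.2, the middle value being that of the library labelled Sox17-RACVEC 2. Akt-LECs had 62.4, 159 and 176, Akt-liver ECs had 96.2, 269 and 91.2, and LSECs had 3045, 2275 and 1608. As for Tek, the LSECs lay above every other library, and the neighbouring groups in the order of means (Akt-RACVECs, Akt-liver ECs, Akt-LECs and Sox17-RACVECs) overlapped.

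Angpt1 (NM_009640, chromosome 15 from 42256273 to 42508523, minus strand), the activating ligand, ran the other way and was low in most EC libraries. Its FPKM was 63.6, 30.1 and 5.23 in MACs and 48.1, 48.0 and 1.18 in Akt-MACs. RACVECs had 56.4, 8.65 and 7.12, and the highest was RACVEC 1, which also had the highest mesenchymal and mural sum of its group (5125, against 2587 and 2856). Akt-RACVECs had 2.39, 1.33 and 0, and Sox17-RACVECs had 0.560, 0 and 0, all below the lowest RACVEC. Akt-LECs had 19.3, 6.38 and 0, Akt-liver ECs had 2.31, 0.700 and 8.90, and LSECs had 1.39, 1.02 and 1.16. The 19.3 was in Akt-LEC 1, with a mesenchymal sum of 4267, and the 8.90 was in Akt-liver EC 3, with a sum of 439. Akt-MAC 3, with a sum of 10608, had the lowest Angpt1 of its group. The part of mesenchymal and mural RNA in the level of Angpt1 was not tested.

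Angpt2 (NM_007426, chromosome 8 from 18690263 to 18741562, minus strand), the ligand made by ECs, had the highest single FPKM of any member. In Akt-liver ECs its FPKM was 2239, 3622 and 8133. Akt-LECs spread over 2665, 370.1 and 33.5, and LSECs had 113, 81.5 and 111. The amniotic cells held it at similar levels, with 30.8, 122 and 58.0 in MACs and 37.9, 151 and 10.8 in Akt-MACs. Conversion left it at 272, 85.9 and 57.8 in RACVECs, 12.7, 104 and 2.74 in Akt-RACVECs, and 43.4, 2.14 and 6.60 in Sox17-RACVECs. Each group overlapped its neighbour in the order of means, Akt-liver ECs included, whose lowest library lay below the highest Akt-LEC.

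Angptl2 (NM_011923, chromosome 2 from 33071589 to 33103237, plus strand), a secreted factor expressed by mesenchymal cells among others, was highest in the amniotic cells. Its FPKM was 538, 222 and 435 in MACs and 627, 222 and 32.1 in Akt-MACs. RACVECs had 296, 79.7 and 111, while Akt-RACVECs spread over 84.9, 7.43 and 0.760 and Sox17-RACVECs over 70.9, 0.540 and 61.2. The EC groups lay in the same low range, with 49.9, 3.02 and 5.64 in Akt-LECs, 68.9, 13.6 and 35.4 in the cultured liver ECs, and 5.74, 6.63 and 19.2 in LSECs. Within the Akt-RACVEC, Akt-LEC and Akt-liver EC groups, the library with the highest Angptl2 was also the one with the highest mesenchymal and mural sum (464, 4267 and 2820), whereas Akt-MAC 3 and MAC 2 had the highest sums of their groups (10608 and 8352) and the lowest Angptl2. The part of these cells in the level of Angptl2 was not tested.

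Angptl4 (NM_020581, chromosome 17 from 33910695 to 33918520, minus strand) was expressed in MACs, converted cells and cultured ECs alike. Its FPKM was 457, 173 and 529 in MACs, 453, 131 and 1109 in RACVECs, and 226, 353 and 235 in Akt-RACVECs. Lower values were found in Akt-MACs (61.1, 19.7 and 143) and Sox17-RACVECs (245, 15.1 and 97.0). Cultured ECs had 465, 192 and 212 from lung and 590.4, 463 and 500.03 from liver. LSECs, in contrast, had 1.39, 1.49 and 7.24, below every other library.

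In RACVECs against MACs, which differ in both the Ets factors and the medium, 1 of the 7 members was called, where 2.71% of all genes tested were called in either direction. Tie1 rose by a log2 fold change of 6.97 (SE 0.741, adjusted p = 2.2e-05), from the near-zero levels of MACs. The size of this value depends on the pseudocount, with 3.96 at a pseudocount of 10 and 9.57 at 0.1. Ptprb (3.28, SE 0.962, adjusted p = 0.0735) and Tek (2.70, SE 1.01, adjusted p = 0.150) were higher in each RACVEC than in any MAC library but did not pass the test. For Angpt1, Angpt2, Angptl2 and Angptl4 the groups overlapped and the log2 fold changes were between -1.43 and 0.87, with adjusted p from 0.645 to 0.950. The median log2 fold change was 0.87 over the members and 0 over all genes. In a fit of these 6 libraries alone, Tie1 missed the threshold (adjusted p = 0.0983), and so it did under the criterion of the study's methods (unequal-variance comparison of FPKM without adjustment).

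All 3 receptor-side genes were higher in converted cells when both sides carried active Akt, in Akt-RACVECs against Akt-MACs. Here 3 of 7 members were called, all higher, against 19.5% of all genes in either direction and 6.15% for higher alone. The log2 fold change was 9.77 for Tie1 (SE 0.741, adjusted p = 9.07e-08), 7.59 for Tek (SE 1.01, adjusted p = 9.99e-05) and 5.48 for Ptprb (SE 0.962, adjusted p = 0.00092). Angptl2 (-3.94, adjusted p = 0.0582), Angpt1 (-3.12, adjusted p = 0.0680) and Angptl4 (2.23, adjusted p = 0.0756) missed the threshold, and these 3 passed when Akt-MAC 3 was left out, which gave 6 called members. Ptprb missed the threshold in a fit of these 6 libraries alone (adjusted p = 0.0781) and under the criterion of the study's methods (unadjusted p = 0.181 by unequal variances). With Akt-MAC 2 and 3 both left out, the 2 libraries with the most macrophage RNA, the values of Tek, Tie1 and Ptprb were 8.11, 10.01 and 7.59. That fit leaves 1 Akt-MAC, which is assumed to vary like the other groups.

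Adding Akt to RACVECs gave receptor-side values that sat at the threshold. In Akt-RACVECs against RACVECs, 0 of 7 members were called, where 0.261% of all genes were called. An unadjusted p below 0.05 with a log2 fold change beyond 1 in size was found for 5 members and 1501 of the 14964 genes. Ptprb had a log2 fold change of 4.23 (SE 0.962, adjusted p = 0.0556), Tek 3.85 (SE 1.01, adjusted p = 0.0807) and Tie1 3.53 (SE 0.741, adjusted p = 0.0509). In these 3 genes, and also in Angpt1, no Akt-RACVEC overlapped a RACVEC, and how many of all genes lay apart in this way was not computed. Ptprb, Tek and Tie1 were all called with a pseudocount of 10, and Tie1 and Ptprb when the filter was a mean of 10 or more. Without RACVEC 2, which had the highest Tie1 of its group, Tie1 was called (4.56, adjusted p = 0.00578). The ligands and Angptl2 were lower by value, Angpt1 by -3.05 (adjusted p = 0.226), Angpt2 by -2.67 (adjusted p = 0.350) and Angptl2 by -3.68 (adjusted p = 0.228). The mesenchymal and mural sum was 6.04 to 464 in Akt-RACVECs and 2587 to 5125 in RACVECs, and its part in these values was not tested. In the same comparison the check genes Erg and Sox17 were at 395 to 1002 and 12.01 to 83.5 in Akt-RACVECs, and at 0.900 to 13.8 and 0 in RACVECs.

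Akt alone did not move a member past the test. In Akt-MACs against MACs 0 of 7 were called, against 2.81% of all genes. For 2 members and 1455 genes the unadjusted p was below 0.05 and the log2 fold change beyond 1 in size. The larger values were those of Angptl4 (-2.61, SE 0.886, adjusted p = 0.141), whose 3 Akt-MACs lay below the 3 MACs, and Ptprb (2.03, SE 0.962, adjusted p = 0.356). Without Akt-MAC 2 and 3 Ptprb was at -0.09 and Angptl4 at -2.49. The 95% interval of the difference was -3.16 to 1.08 for Tek and -0.83 to 2.28 for Tie1. Whether Akt acted differently with and without Ets factors was tested as an interaction, which called 0 of 7 members, against 0.00668% of all genes above 0 and 0.0936% below. The interaction was 4.88 for Tek (SE 1.43, adjusted p = 0.153), 2.80 for Tie1 (SE 1.05, adjusted p = 0.273) and 2.20 for Ptprb (SE 1.36, adjusted p = 0.551). Of the 7 members, 2 had an unadjusted p below 0.05 and an interaction beyond 1 in size, as had 1516 genes.

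Sox17-RACVECs against RACVECs gave 0 called members, and 0.00668% of all genes, or 1 gene, was called. An unadjusted p below 0.05 with a log2 fold change beyond 1 in size was found for 5 members and 704 genes. Tie1 was higher by 2.68 (SE 0.741, adjusted p = 0.375) and Ptprb by 2.59 (SE 0.962, adjusted p = 0.601), while Tek was at -0.03 (SE 1.01, adjusted p = 1). Without the library labelled Sox17-RACVEC 2 these values were 1.98, 1.78 and -1.84, and Angptl2 and Angptl4 went from -2.87 and -2.47 to -1.05 and -1.38. Angpt1 was at -3.83 (SE 1.21, adjusted p = 0.485) with that library and at -3.72 without it. Angpt2 was at -3.45 (SE 1.38, adjusted p = 0.642) with that library and at -2.60 without it. Without RACVEC 2, Tie1 was called (3.70, adjusted p = 0.0272). RACVEC 2 had Pearson correlations of 0.961 and 0.959 with Sox17-RACVEC 1 and 3, against 0.914 and 0.921 with RACVEC 1 and 3. Tie1 was at 602 FPKM in RACVEC 2, and at 605 and 543 in Sox17-RACVEC 1 and 3. The part of this likeness in the call was not tested. The mesenchymal and mural sum was 1192 and 2331 in Sox17-RACVEC 1 and 3, and 11.9 in the library labelled Sox17-RACVEC 2.

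**Figure D2:**
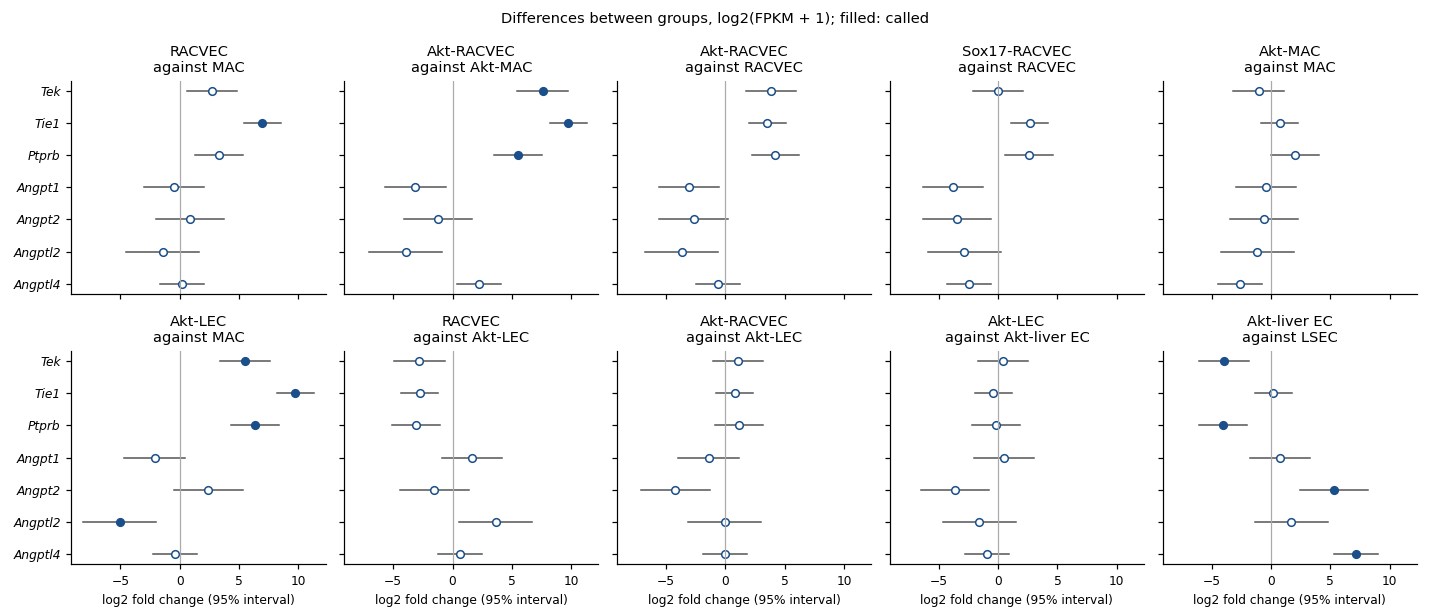
Differences of the 7 genes in the 10 comparisons, as log2 fold changes of log2(FPKM + 1) on the horizontal axis with 95% intervals as lines. Filled points are called. The called points are Tie1 in RACVECs against MACs, the 3 receptor-side genes in Akt-RACVECs against Akt-MACs and in Akt-LECs against MACs, Angptl2 in the latter, and Tek, Ptprb, Angpt2 and Angptl4 in Akt-liver ECs against LSECs.

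Akt-LECs, primary lung ECs in culture, were compared with MACs and with the converted cells. In Akt-LECs against MACs, 4 of 7 members were called, 3 higher and 1 lower, where 5.95% of all genes were called higher and 5.59% lower. Tie1 was higher by 9.72 (SE 0.741, adjusted p = 2e-07), Ptprb by 6.36 (SE 0.962, adjusted p = 0.000455) and Tek by 5.50 (SE 1.01, adjusted p = 0.00216), and Angptl2 was lower, at -5.08 (SE 1.47, adjusted p = 0.0284). Leaving out Akt-LEC 1 gave the same 4 calls, with Angptl2 at -6.18. Angptl2 lost its call without MAC 1, MAC 3, Akt-LEC 2 or Akt-LEC 3 (adjusted p up to 0.101), and a fit of these 6 libraries alone kept 2 calls, Tie1 and Ptprb.

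RACVECs had lower means than the lung ECs in the receptor-side genes, but the differences did not pass the test, and for Tie1 the groups overlapped (RACVEC 2 at 602, Akt-LEC 1 at 367). In RACVECs against Akt-LECs 0 of 7 members were called, against 0.261% of all genes. For 4 members and 1165 genes the unadjusted p was below 0.05 and the log2 fold change beyond 1 in size. The log2 fold change was -3.08 for Ptprb (adjusted p = 0.197), -2.80 for Tek (adjusted p = 0.274) and -2.76 for Tie1 (adjusted p = 0.150), and Angptl2 was at 3.65 (adjusted p = 0.338). Tie1 was called without RACVEC 2 (-3.78, adjusted p = 0.0186) and without the first Akt-LEC and Akt-liver EC library (-3.47, adjusted p = 0.0369). Akt-RACVECs against Akt-LECs likewise gave 0 of 7 called, against 0.00668% of all genes. In that comparison 1 member and 623 genes had an unadjusted p below 0.05 and a log2 fold change beyond 1 in size. The 95% interval was -1.07 to 3.17 for Tek, -0.78 to 2.33 for Tie1 and -0.87 to 3.16 for Ptprb. Differences within these intervals are compatible with the data, so the missing calls do not show equal levels. Angpt2 had the largest value, -4.21 (SE 1.38, adjusted p = 0.335), with 12.7, 104 and 2.74 FPKM against 2665, 370.1 and 33.5.

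Lung and liver ECs cultured in the same way differed in no member past the test (0 of 7, against 0.0134% of all genes). Between them 1 member and 417 genes had an unadjusted p below 0.05 and a log2 fold change beyond 1 in size. Angpt2 was lower in Akt-LECs by -3.64 (SE 1.38, unadjusted p = 0.0162, adjusted p = 1) and by -5.58 without the first library of each group (adjusted p = 0.229). The other 6 members had log2 fold changes between -1.59 and 0.48, and their groups overlapped.

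Cultured and directly isolated liver ECs differed in both receptor-side and ligand genes. In Akt-liver ECs against LSECs 4 of 7 members were called, against 27.0% of all genes, with 14.1% higher and 12.9% lower. Tek (-3.94, SE 1.01, adjusted p = 0.00565) and Ptprb (-4.06, SE 0.962, adjusted p = 0.00327) were lower in the cultured cells. Angpt2 (5.31, SE 1.38, adjusted p = 0.00599) and Angptl4 (7.14, SE 0.886, adjusted p = 6.06e-06) were higher. Tie1 differed by 0.19 with a 95% interval of -1.36 to 1.75 (adjusted p = 0.878). These 4 calls stood when any of the 6 libraries was left out, and under the criterion of the study's methods 3 stood, without Angpt2. LSECs held macrophage, hepatocyte and red cell RNA, with Clec4f at 2965 to 4942 and Alb at 1211 to 7975, against 0 to 4.75 and 0 to 30.3 in Akt-liver ECs, and the endothelial sum was 22783 to 24375 in LSECs against 13900 to 20242 in Akt-liver ECs.

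The balance between members within a library is given as a description with no test because it was chosen after the values were seen. The ratio of Tie1 to Tek in FPKM was 0.574, 0.843 and 0.861 in LSECs, the only EC group in which Tek exceeded Tie1. It was 7.05, 16.9 and 19.4 in Akt-liver ECs, 5.23, 6.38 and 12.4 in Akt-LECs, 8.26, 6.37 and 4.40 in Akt-RACVECs, and 4.85, 35.2 and 2.96 in RACVECs. In Sox17-RACVEC 1 and 3 it was 165 and 105, and in the library labelled Sox17-RACVEC 2 it was 10.6. The ratio of Angpt2 to Angpt1 was 969, 5174 and 914 in Akt-liver ECs and 81.1, 79.9 and 96.0 in LSECs, with 138 and 58.0 in the 2 Akt-LECs and 5.29 and 78.2 in the 2 Akt-RACVECs in which Angpt1 was above 0, while MACs had 0.483, 4.05 and 11.1 and RACVECs 4.82, 9.94 and 8.11.

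**Figure D3:**
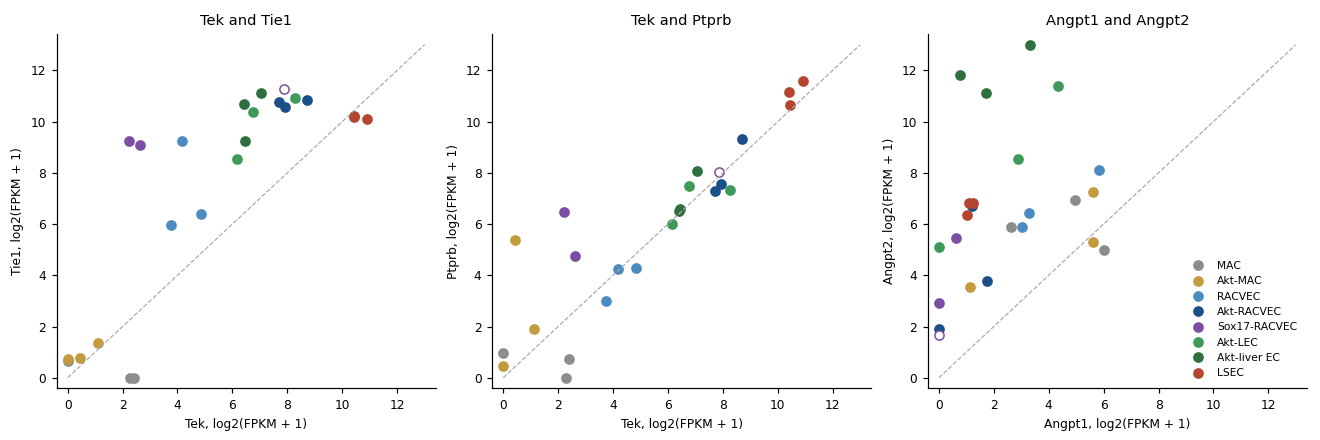
Pairs of members in each library, as log2(FPKM + 1) on both axes, coloured by group, with the dashed line of equal level and the open point for the library labelled Sox17-RACVEC 2. LSECs fall below the line for Tek and Tie1 (ratios of 0.574 to 0.861), where the other EC groups lie above it, and Tek and Ptprb lie near the line in most EC libraries.

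Over the 8 group means of log2(FPKM + 1), Tek had a Pearson correlation of 0.942 with Ptprb and 0.851 with Tie1, and Tie1 of 0.873 with Ptprb. Angptl2 ran against them, at -0.859 with Tek, -0.897 with Tie1 and -0.927 with Ptprb, and with Angpt1 at 0.884. Angpt2 was between -0.02 and 0.29 with the other 6 members. These values describe 8 groups that share lineages and cultures. Among the 13580 genes reaching 10 FPKM in a group mean, those most like Tek were Pcdh12, a protocadherin of ECs (0.993), Hmgb1 (0.986) and Calcrl, the receptor of adrenomedullin (0.983). Tie1 was closest to the adaptor gene She (0.999), Ppp1r16b (0.991) and Actr5 (0.990). The correlation takes no account of the size of a change. Group means of Actr5 ran only from 12.7 to 26.3 FPKM, and those of Tie1 from 0.197 to 1692. Of the genes nearest to Ptprb with a symbol, Pde2a had 0.988 and Ralb 0.985. Angpt1 was closest to Gas1 (0.977), Cpxm1 (0.976) and the BMP antagonist Grem1 (0.975), and Angptl2 to Mdga2 (0.988), Irs1 (0.986) and Dlg3 (0.984). The order of Angpt2 was nearest to Mylpf (0.969), Ddi2 (0.953) and Tor1b (0.924), and among the genes near Angptl4 were Zbtb12 (0.976) and Dap3 (0.970).

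The 28 other genes of the pathway (further ligands, adaptors of Tek, kinases, proteases, integrins and downstream genes) were all tested. In RACVECs against MACs, where 2.71% of all genes were called in either direction, 1 rose and 0 fell. The 1 was Cdh5, the VE-cadherin of endothelial junctions, at 0.820 to 1.87 FPKM in MACs and 863 to 1887 in RACVECs (log2 fold change 9.22, adjusted p = 1.92e-09). In Akt-RACVECs against Akt-MACs, where 19.5% of all genes were called in either direction and 6.15% rose, 6 rose and 3 fell. Cdh5 (9.68), Nos3, the endothelial nitric oxide synthase (7.14, adjusted p = 0.00695), and Klf2, a factor responsive to shear stress (5.09, adjusted p = 0.00121), rose most among those above 0 in both groups, and the adaptor Grb14 fell (-4.72, adjusted p = 0.0026). Angpt4, a further Tek ligand, fell from 5.76 to 9.61 FPKM in Akt-MACs to a listed 0 in Akt-RACVECs, and Angpt4 rose in Akt-MACs against MACs (2.06, adjusted p = 0.0268), where Shc1 fell (-1.10, adjusted p = 0.0366). In Akt-LECs against MACs, where 5.95% of all genes rose and 5.59% fell, 7 rose and 1 fell. Cdh5 (9.89), Nos3 (7.41, adjusted p = 0.00888) and Klf2 (2.87, adjusted p = 0.0466) were among the 7, and Grb14 (-4.90, adjusted p = 0.00349) was the 1. Akt-LECs were sorted for VE-cadherin, so the rise of Cdh5 in this comparison is no finding. Nos3 was listed at 0 to 2.46 in RACVECs, at 62.3 to 898 in Akt-RACVECs and at 819 in the library labelled Sox17-RACVEC 2, against 0 and 0.580 in the other Sox17-RACVECs. No gene of the list was called in Akt-RACVECs or Sox17-RACVECs against RACVECs, in either comparison of converted cells with Akt-LECs, between Akt-LECs and Akt-liver ECs, or in the interaction. The median log2 fold change of the 28 was 0.10 in RACVECs against MACs, 0.04 in Akt-RACVECs against Akt-MACs and 0.48 in Akt-LECs against MACs, where the median of all genes was 0, -0.09 and 0.

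In Akt-liver ECs against LSECs, 6 of the 28 rose and 4 fell, where 14.1% of all genes rose and 12.9% fell, so the share that fell was near the background. Those that rose were Birc5, an inhibitor of apoptosis (3.43, adjusted p = 0.00141), the integrin chains Itgav (1.96) and Itga5 (1.09), Jup (1.76), Shc1 (1.58) and Ptpn11 (1.06). Dok2, an adaptor of Tek that is also made in blood cells, fell most (-4.27, adjusted p = 0.00531), from 59.9 ± 10.5 FPKM (SD, n = 3) in LSECs to 4.48 ± 6.65 in Akt-liver ECs, followed by Nck1 (-1.65), Grb7 (-1.55) and Tnip2 (-1.13). Dok2 was also at 25.6 and 56.1 in Akt-MAC 2 and 3, and the part of macrophage RNA in its level was not tested. The median log2 fold change was 0.35 over the list and 0.08 over all genes.

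Of the 5 other angiopoietin-like genes, 4 were tested. In Akt-RACVECs against Akt-MACs, where 19.5% of all genes were called in either direction and 6.15% rose, 0 rose and 2 fell. The 2 were Angptl7, at 23.0 to 259 FPKM in Akt-MACs and listed at 0 in Akt-RACVECs, and Angptl6 (-1.76, adjusted p = 0.0340). In Akt-liver ECs against LSECs Angptl6 (-2.75, adjusted p = 0.00125) and Angptl8 (-2.12, adjusted p = 0.0178) fell. The part of hepatocyte RNA in these values was not tested. None was called in the remaining comparisons. The median of the 4 was -1.30 in Akt-RACVECs against Akt-MACs, against -0.09 over all genes.

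The targets and regulators of Angptl4 were followed as a list of 13 genes, 12 of them tested. Gpihbp1, the protein of capillary ECs that carries lipoprotein lipase, was listed at 0 in all MACs and Akt-MACs, at 15.8, 3.76 and 2.56 FPKM in RACVECs and at 76.6, 248 and 50.2 in Akt-RACVECs. It was the 1 gene of this list that rose in Akt-RACVECs against RACVECs (3.92, adjusted p = 0.0363), where 0.261% of all genes were called. Gpihbp1 was also lower in RACVECs than in Akt-LECs (-3.97, adjusted p = 0.0306), against 0.261% of all genes called. In Akt-liver ECs it was 109, 355 and 381, and in LSECs 10446, 9620 and 12583 (-5.46, adjusted p = 2.61e-05), the group in which Angptl4 was lowest. In that comparison, where 14.1% of all genes rose and 12.9% fell, 2 of the 12 rose, Pparg (3.56, adjusted p = 0.0161) and Ppard (1.54, adjusted p = 0.000124), nuclear receptors that act on the Angptl4 gene, and 3 fell, Gpihbp1, Epas1 (-2.46, adjusted p = 0.0197) and Lipc, the hepatic lipase (-2.45, adjusted p = 0.0141), with a median of -0.75 over the 12 and 0.08 over all genes. In Akt-RACVECs against Akt-MACs Gpihbp1 and Pparg (3.42, adjusted p = 0.0291) rose and Lpl, the lipase itself, fell (-5.54, adjusted p = 0.0160). Of all genes, 19.5% were called there in either direction and 6.15% rose. The median was 0.15 over the 12 and -0.09 over all genes. The Lpl values of Akt-MACs were 44.6, 801 and 2656, highest in the library with the most macrophage RNA, and those of Akt-RACVECs 8.93, 10.5 and 7.52. In Akt-LECs against MACs, where 5.95% of all genes rose and 5.59% fell, Gpihbp1 was the 1 gene that rose, and 0 fell. No gene of this list was called in the other 5 comparisons or in the interaction.

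**Figure D4:**
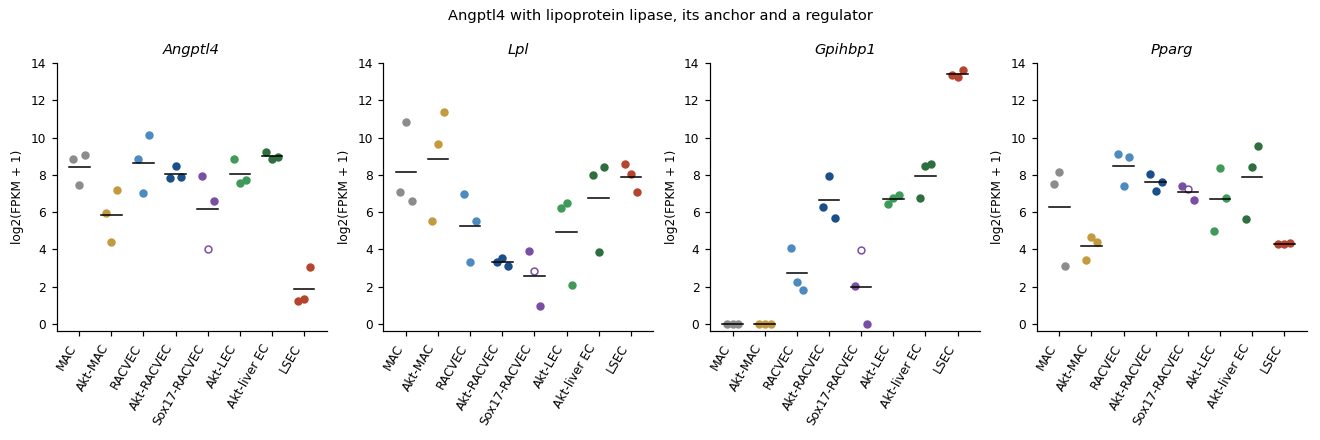
Levels of Angptl4, Lpl, Gpihbp1 and Pparg in the 24 libraries, as log2(FPKM + 1) on the vertical axis and the 8 groups on the horizontal axis, with 1 point per library, the mean of 3 as a bar, and the open point for the library labelled Sox17-RACVEC 2. LSECs had the lowest Angptl4 (1.39 to 7.24 FPKM) and the highest Gpihbp1 (9620 to 12583 FPKM).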

How the data were processed

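RNA of 24 mouse samples was read as paired ends of 51 bp from TruSeq libraries. The authors aligned reads to mm9 with TopHat and deposited FPKM per RefSeq transcript from Cufflinks, upper-quartile normalised and corrected for sequence bias. Versions and read numbers are not given in the sources used here, so depth is unknown. Of 27583 transcripts, 26930 had a symbol and were summed to 22282 genes. Groups follow the labels, and 0 pairs of libraries held identical values.

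Differences were tested with limma 3.58.1 (R 4.3.3, two-sided) on log2(FPKM + 1), in 1 fit of 24 libraries and 8 groups with a variance trend. Adjustment ran over 14964 genes averaging 1 FPKM or more. The procedure was tested on simulated data. Alternatives changed the pseudocount, filter, scaling, fit and libraries used. Positions are from GENCODE M1 on NCBIM37 (mm9).

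The members and lists were chosen with earlier results of these data known. Named genes are the 7 members, the genes of the 3 lists that passed the test, and the 3 genes most like each member. Some genes that this rule names are not reported here. Markers and factors used as checks were named besides.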

Additional observations from a re-analysis of the deposited data

How the results depend on the processing

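Depth is unknown, and groups hold 3 libraries, which for Tie1 in RACVECs and Angpt2 in Akt-LECs spread widely. Of 1253 member values under the alternatives, 1174 kept their direction and side of the threshold, 23 lost a call, 17 gained a call and 39 changed sign, each of the 39 in a member that was not called, and the cause was not tested. For RACVECs against MACs, the 1 called member became 2 with a pseudocount of 0.1, and 0 in a fit of only these groups, with the replicate block and under the criterion of the study's methods. For Akt-RACVECs against Akt-MACs, 3 became 0 with the replicate block and 2 in a fit of only these groups. For Akt-liver ECs against LSECs, 4 became 3 under the criterion, without Angpt2. For Akt-RACVECs against RACVECs, 0 became 3 with a pseudocount of 10, 2 with a filter at a mean of 10 and 1 under the criterion. For Akt-LECs against MACs, 4 became 2 in a fit of only these groups, and 0 with the replicate block and under the criterion. For RACVECs against Akt-LECs, 0 became 1 without the first Akt-LEC and Akt-liver EC library. Leaving out each library gave 1 to 1 called members in RACVECs against MACs, 3 to 6 in Akt-RACVECs against Akt-MACs (6 without Akt-MAC 3), 0 to 1 in Akt-RACVECs against RACVECs, Sox17-RACVECs against RACVECs and RACVECs against Akt-LECs (1 without RACVEC 2 in each), 3 to 4 in Akt-LECs against MACs, 4 to 4 in Akt-liver ECs against LSECs, and 0 to 0 in the others.

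The replicate numbers were not used as pairs in the main fit. No comparison had every correlation of same-numbered libraries above 0.1 (the range over all comparisons was -0.200 to 0.571). This rule cannot exclude pairing, and replicates 1 and 2 of Akt-LECs against Akt-liver ECs had correlations of 0.571 and 0.366. With the replicate block the adjusted p was 0.262 for Tie1 in RACVECs against MACs, 0.081 for Tek and Tie1 in Akt-RACVECs against Akt-MACs, and 0.0188 for Tek in Akt-liver ECs against LSECs, where 4 members were called in either fit. Pairing RACVECs and MACs by matching file headers, chosen after seeing the data as were the fits without the first Akt-LEC and Akt-liver EC library and without Akt-MAC 2 and 3, left Tie1 called (adjusted p = 1.57e-05).

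Signs changed as follows. Tek in Sox17-RACVECs against RACVECs was at 0.37 with a pseudocount of 10, 0.051 with scaled libraries and 2.01 under the criterion. Without Akt-MAC 2 and 3, Akt-MACs against MACs gave Ptprb -0.088, Angpt1 1.08 and Angptl2 0.74. In Akt-RACVECs against Akt-LECs, Angptl2 was at 0.18 with a pseudocount of 10, 0.64 under the criterion and 1.07 without the first Akt-LEC library, and Angptl4 at 0.0085 with scaled libraries and 0.40 without that library. In Akt-LECs against Akt-liver ECs, Angpt1 was at -0.16 with a pseudocount of 0.1, and without the first library of each group Ptprb was at 0.091 and Angpt1 at -0.59. Leaving out each library in turn also moved values through 0, and these are given as the lowest and highest log2 fold change. In RACVECs against MACs it ran from -1.44 to 0.25 for Angpt1, and -0.51 to 1.03 for Angptl4. In Akt-RACVECs against RACVECs it ran from -1.41 to 0.12 for Angptl4. In Sox17-RACVECs against RACVECs it ran from -1.84 to 0.98 for Tek. In Akt-MACs against MACs it ran from -1.37 to 1.08 for Angpt1, and -1.52 to 0.32 for Angpt2. In RACVECs against Akt-LECs it ran from -0.13 to 1.41 for Angptl4. In Akt-RACVECs against Akt-LECs it ran from -1.52 to 1.28 for Angptl2, and -0.24 to 0.40 for Angptl4. In Akt-LECs against Akt-liver ECs it ran from -0.19 to 0.87 for Tek, and -0.96 to 0.30 for Tie1, and -0.42 to 0.36 for Ptprb, and -0.49 to 1.68 for Angpt1. In Akt-liver ECs against LSECs it ran from -0.19 to 0.74 for Tie1.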
